A study of Homo sapiens with 6 samples.

Results

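The genes described here encode the sliding clamp PCNA, the subunits of its loader (RFC1 to RFC5), the single-strand binding protein RPA (RPA1 to RPA3) and the flap endonuclease FEN1. They were chosen by symbol, and all 10 were found among the 27942 genes of the deposited table. The RNA came from HCT116, a human cell line of colorectal carcinoma origin with wild-type p53, grown without treatment (NT) or with 0.5 µM oxaliplatin for 24 h (OXA). Oxaliplatin is a platinum drug that forms adducts on DNA. Each group held 3 libraries of polyadenylated RNA, numbered 1 to 3 in the sample labels, and the labels name no difference between the groups but the drug. The comparison asks which transcripts change after 24 h at a dose the study set at its IC50. Nothing states that the libraries of a group came from separate cultures, so p-values measure the spread between these libraries, and 1 cell line was used.

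PCNA forms a ring that slides along DNA and tethers the replicative polymerases and many other proteins. The ring is opened and placed at primer ends by replication factor C (RFC), in which a large subunit, RFC1, joins small subunits of the AAA+ ATPase family that other loaders share. RPA coats exposed single-stranded DNA and serves as a platform for checkpoint signaling, and FEN1 trims the flaps left between Okazaki fragments while bound to PCNA. Transcripts of these genes are known to be most abundant in dividing cells. PCNA is also known as a gene on which both E2F factors and p53 can act. p21, the product of CDKN1A, is known to bind PCNA directly.

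Library totals lay between 32979521 and 40967880 counts, and the 10 genes together took between 0.149% and 0.169% of the counts of an NT library and between 0.110% and 0.124% of an OXA library. The epithelial gene EPCAM had between 8451 and 10828 raw counts per library and the leukocyte gene PTPRC between 0 and 2, whereas the intestinal transcription factor gene CDX1 was at 0 in every library. Summed raw counts of 6 epithelial markers were 77354 to 111672 in NT and 119323 to 151039 in OXA, those of 4 intestinal markers 566 to 678 and 607 to 702, and those of 4 fibroblast markers 112 to 283 and 195 to 273. Leukocyte markers (4) summed to 6 to 8 in NT and 2 to 4 in OXA, and endothelial markers (3) to 23 to 26 and 16 to 32. The part of these markers in the results was not tested. Of the epithelial markers, log2 fold changes (OXA over NT) were -0.040 for EPCAM, -0.20 for CDH1 and 0.31 to 1.29 for the others. Their edgeR adjusted p-values ran from 0.0616 (KRT19) to 0.870 (EPCAM). With the replicate number as a block (below), the edgeR adjusted p was 0.594 for EPCAM and 0.00673 to 0.0408 for the others. NT library 1 stood apart from the other NT libraries (chi-square per gene 83.1 and 75.7, against 21.4 between NT libraries 2 and 3), and it was the highest NT library in 8 of the 10 genes. OXA library 2 was the lowest OXA library in 9 of the 10. Results are therefore also given without single libraries.

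Of the 10 genes, 5 fell after oxaliplatin when calls were made by edgeR's quasi-likelihood test at 0.05 after Benjamini-Hochberg adjustment (RFC2, RFC4, RFC5, RPA2 and FEN1) and 0 rose. Among all 13727 genes tested, 2.29% were called lower and 2.78% higher. The estimates were negative in 10 of 10 genes, a sign that 46.7% of all genes shared. Log2 fold changes (OXA over NT, given below with their standard error, SE) lay between -0.84 and -0.045, with a median of -0.48, where the median of all genes tested was 0.023. With the fold change over 1.5 that the study required, 3 remained (FEN1, RFC4 and RFC5), against 1.44% of all genes. Every OXA library lay below every NT library in 7 of the 10 genes, which held for 14.4% of all genes tested. At an unadjusted p-value under 0.05, 7 genes were lower and 0 higher, where 11.1% of all genes tested were lower and 10.7% higher. DESeq2 called 7 of the 10 lower and 0 higher, against 4.81% lower and 4.80% higher of the 13192 genes to which it gave an adjusted p-value.

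The replicate number was taken to pair the libraries, because same-numbered libraries deviated together in these same counts. When it entered the edgeR fit as a block, 8 of the 10 genes were lower, RFC1, RFC3 and RPA3 being added, and 0 higher, against 10.9% of all genes lower and 12.1% higher. Without a block, 5 genes were called without NT library 1, 3 without NT library 2, and 1, FEN1, without NT library 3 or without any 1 of the OXA libraries. Calls moved over all genes as well. The share of all genes called lower was 4.11% without NT library 1, 1.05% without NT library 2 and 0.498% without NT library 3. It was 0.136%, 0.231% and 0.483% without OXA libraries 1, 2 and 3.

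Promoters of the genes at either end of this range and of a pair of loader subunits are printed here, FEN1 with the lowest estimate and PCNA with the one closest to 0. RefSeq promoter windows (GRCh38.p14) were found for 8 of the 10 genes, 9 windows in all as PCNA has a pair of start sites. RPA2 and RPA3 have no entry. RefSeq start sites can differ from the GENCODE gene bounds given below. The RFC4 window lies within the bounds of its gene, and the RFC3 window runs past the first base of its gene. Which start sites these cells use was not tested. The 250 bases before each start site read 5′ to 3′ on the gene's strand, with capitals marking, on either strand, CCAAT and any of the E2F-type strings TTTCCCGC, TTTCGCGC, TTTGCCGC and TTTGGCGC taken without their first base.
PCNA at the downstream start site, chr20:5119959-5120208, minus strand: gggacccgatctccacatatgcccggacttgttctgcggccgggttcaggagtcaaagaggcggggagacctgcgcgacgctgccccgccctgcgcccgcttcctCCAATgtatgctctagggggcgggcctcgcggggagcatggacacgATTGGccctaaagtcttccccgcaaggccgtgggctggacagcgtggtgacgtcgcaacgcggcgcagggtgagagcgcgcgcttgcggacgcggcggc
PCNA at the upstream start site, chr20:5126623-5126872, minus strand: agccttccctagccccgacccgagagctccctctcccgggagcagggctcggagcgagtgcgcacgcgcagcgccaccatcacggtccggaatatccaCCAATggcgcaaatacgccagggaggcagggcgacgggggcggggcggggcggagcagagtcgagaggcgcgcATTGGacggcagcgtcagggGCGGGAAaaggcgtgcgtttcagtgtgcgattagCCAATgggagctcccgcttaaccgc
RFC3, chr13:33817899-33818148, plus strand: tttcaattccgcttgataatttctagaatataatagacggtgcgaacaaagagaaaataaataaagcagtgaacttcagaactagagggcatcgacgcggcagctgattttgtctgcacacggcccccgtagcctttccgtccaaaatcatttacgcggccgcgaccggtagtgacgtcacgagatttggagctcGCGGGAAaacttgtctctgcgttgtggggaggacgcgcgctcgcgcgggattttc
RFC4, chr3:186806483-186806732, minus strand: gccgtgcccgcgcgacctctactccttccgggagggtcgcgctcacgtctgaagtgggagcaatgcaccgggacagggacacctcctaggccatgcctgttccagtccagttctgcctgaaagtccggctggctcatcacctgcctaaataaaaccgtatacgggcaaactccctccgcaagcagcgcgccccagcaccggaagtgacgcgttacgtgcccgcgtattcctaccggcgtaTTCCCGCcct
FEN1, chr11:61792661-61792910, plus strand: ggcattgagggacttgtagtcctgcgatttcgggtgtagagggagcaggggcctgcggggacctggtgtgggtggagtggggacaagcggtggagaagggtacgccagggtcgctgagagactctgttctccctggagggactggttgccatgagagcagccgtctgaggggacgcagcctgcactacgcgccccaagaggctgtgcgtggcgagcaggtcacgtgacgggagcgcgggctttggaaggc

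Over 300 bases (250 before and 50 after the start site, both strands), one of the whole E2F-type strings of 8 bases was found in 2 of the 9 windows, namely RFC3, 55 bases before the start site, and the upstream PCNA start site, 59 bases before it. Of all 35116 promoter windows, 3.32% hold one. That set was not limited to genes tested here, nor matched to the 9 windows in base content. The strings without their first base, a form chosen after the first search, were found in 7 of the 9 windows and in 12.97% of all windows. They were in every window of RFC1 to RFC5, in that of RPA1 and in the upstream PCNA window, and those of RFC3 and PCNA lie within the longer string. In RFC1 and RFC5 they lie only after the start site. GGGCGG overlaps them in PCNA and RFC4. CCAAT was found in 5 of the 9 windows, in PCNA, RFC1, RFC5 and RPA1, and in 34.6% of all windows. GGGCGG was found in 7 of the 9 and in 45.0% of all. TTTGAA, the cell cycle homology element, and a full p53 site with at most 1 spacer base were found in none of the 9, and in 15.2% and 0.0199% of all windows. The FEN1 window held none of the strings searched. A match of letters, or the lack of one, is a description of the window and not evidence of binding or of its absence.

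**Figure D1:**
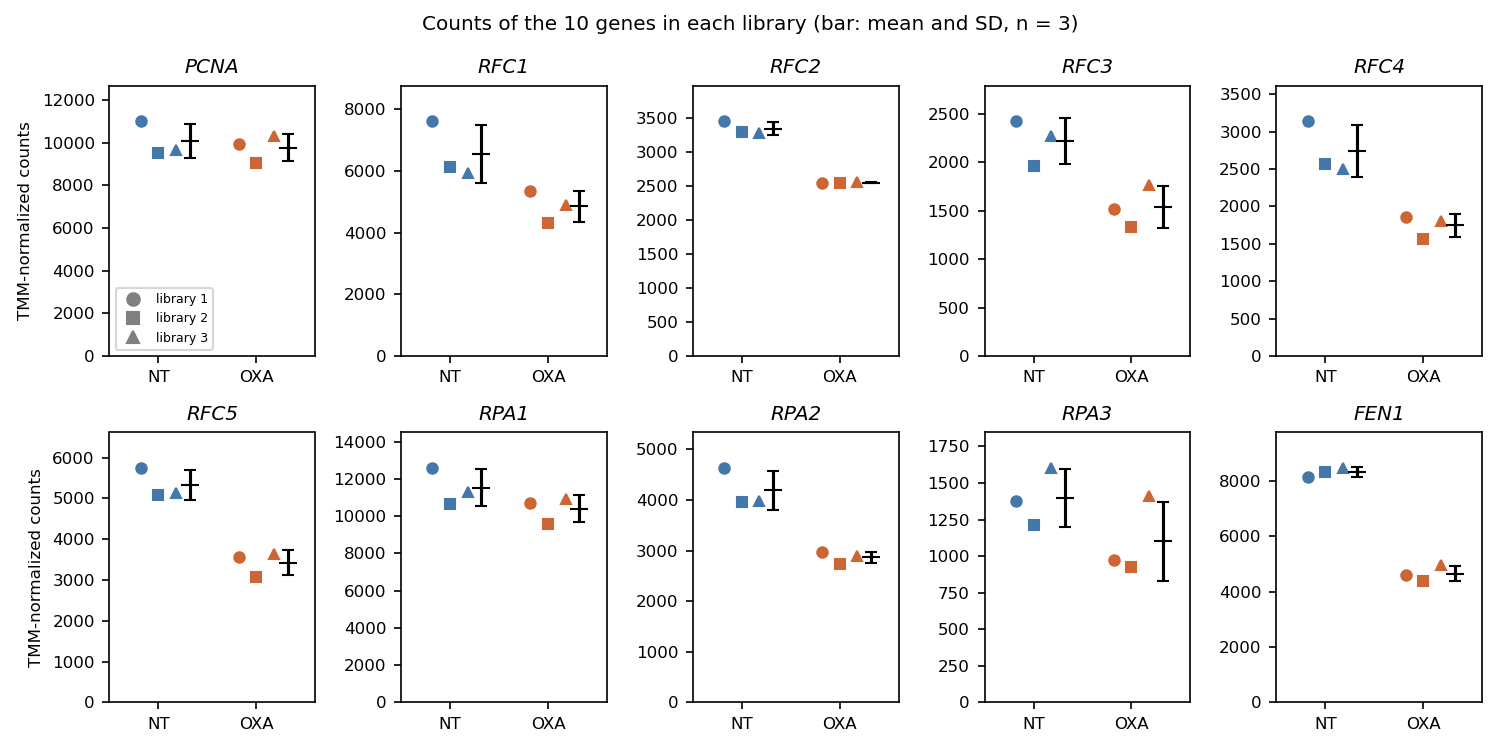
TMM-normalized counts (y axis, from 0) of the 10 genes in the 3 NT and 3 OXA libraries (x axis); symbols give the library number, and bars the mean and SD of 3 libraries. FEN1 lies between 8138 and 8468 in NT and between 4397 and 4941 in OXA, whereas the PCNA groups overlap.

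PCNA (ENSG00000132646, chromosome 20 of GRCh38 from 5114953 to 5126626) was the member with the estimate closest to 0. It had 11016, 9541 and 9684 TMM-normalized counts in NT libraries 1 to 3 and 9929, 9074 and 10301 in OXA libraries 1 to 3. The groups overlapped, with a single NT library above all OXA libraries. The log2 change was -0.045 (± 0.096 SE, adjusted p = 0.830 by edgeR), and its 95% interval, from -0.27 to 0.18, leaves room for 0.831-fold to 1.13-fold. Its sign turned when NT library 1 was left out (0.023) or OXA library 2 (0.0056). The block left PCNA without a call (adjusted p = 0.625 by edgeR), and it was lower in OXA in 2 of the 3 same-numbered pairs. In bulk RNA, fewer cells that carry a transcript and fewer copies per cell cannot be told apart, for this gene and those below.

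RFC1 (ENSG00000035928, chromosome 4 from 39287456 to 39366375) encodes the large subunit that is particular to the replicative loader. Its normalized counts were 7618, 6117 and 5924 in NT and 5345, 4324 and 4887 in OXA. Every OXA library lay below every NT library, but the spread within the groups was wide. The log2 change of -0.43 (± 0.13 SE) did not pass the threshold (adjusted p = 0.0994 by edgeR) and did with the replicate block (adjusted p = 0.00993 by edgeR). DESeq2 also called it (adjusted p = 0.0400).

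Of the genes of the small subunits, RFC4 (ENSG00000163918, chromosome 3 from 186789880 to 186807058) and RFC5 (ENSG00000111445, chromosome 12 from 118013588 to 118033130) fell most. RFC4 had 3141, 2574 and 2508 normalized counts in NT and 1865, 1570 and 1811 in OXA, and the groups were well apart. It was 36.2% lower in OXA (log2 change -0.65 ± 0.12 SE, adjusted p = 0.0273 by edgeR). RFC5 had 5752, 5076 and 5144 normalized counts in NT and 3556, 3078 and 3644 in OXA. Each of its OXA libraries lay below the lowest NT library. The fall was 35.6% (log2 change -0.64 ± 0.10 SE, adjusted p = 0.0161 by edgeR). In 6 fits, each lacking 1 library, RFC4 passed 1 time (without NT library 1) and RFC5 2 times (without NT library 1 or 2), with log2 fold changes from -0.74 to -0.54 and from -0.72 to -0.56.

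RFC2 (ENSG00000049541, chromosome 7 from 74231499 to 74254458) fell by less and with little spread. Its normalized counts were 3446, 3290 and 3271 in NT and 2534, 2545 and 2551 in OXA, so that the OXA libraries were nearly level. It was 23.8% lower (log2 change -0.39 ± 0.077 SE, adjusted p = 0.0318 by edgeR). The call remained without NT library 1 and was lost in the other 5 fits that lacked a library, with edgeR adjusted p-values up to 0.165. It was also lost with the authors' factors as offsets (adjusted p = 0.0649 by edgeR). RFC3 (ENSG00000133119, chromosome 13 from 33818069 to 33966558), the loader subunit gene with the lowest level per transcript length, had 2425, 1958 and 2269 normalized counts in NT and 1518, 1329 and 1767 in OXA. The groups did not overlap, yet OXA library 3 came close to NT library 2. The log2 change of -0.53 (± 0.13 SE) missed the threshold (adjusted p = 0.0683 by edgeR) and passed with the replicate block (adjusted p = 0.00924 by edgeR) and by DESeq2 (adjusted p = 0.0111).

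Of the 3 RPA subunit genes, RPA2 fell and the others did not pass the test. RPA1 (ENSG00000132383, chromosome 17 from 1829702 to 1900082), which encodes the large subunit that makes most of the contacts with DNA, had 12607, 10670 and 11303 normalized counts in NT and 10714, 9600 and 10910 in OXA. The groups overlapped, and the log2 change was -0.15 (± 0.099 SE, adjusted p = 0.443 by edgeR), with a 95% interval from -0.38 to 0.081. RPA2 (ENSG00000117748, chromosome 1 from 27891524 to 27914746) encodes the subunit that checkpoint kinases phosphorylate. It had 4636, 3955 and 3984 normalized counts in NT and 2962, 2736 and 2893 in OXA. All OXA libraries lay below the NT libraries, and the gene was 31.7% lower (log2 change -0.55 ± 0.095 SE, adjusted p = 0.0217 by edgeR). It passed in 2 of the 6 fits that lacked a library, those without NT library 1 or 2.

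RPA3 (ENSG00000106399, chromosome 7 from 7636518 to 7718607), the gene of the smallest subunit, had 1378, 1211 and 1604 normalized counts in NT and 971, 925 and 1412 in OXA. Library 3 was the highest in both groups, so the groups overlapped although OXA was lower in each same-numbered pair. The log2 change was -0.34 (± 0.19 SE, adjusted p = 0.343 by edgeR). With the replicate block the edgeR adjusted p was 0.0315, at a log2 fold change of -0.36. The block did not give a call for RPA1 (adjusted p = 0.106 by edgeR).

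FEN1 (ENSG00000168496, chromosome 11 from 61792911 to 61797238) had the largest fall of the 10. Its normalized counts were 8138, 8326 and 8468 in NT and 4602, 4397 and 4941 in OXA, far apart in relation to the spread in either group. The gene was 44.1% lower (log2 change -0.84 ± 0.083 SE, adjusted p = 0.00345 by edgeR) and stood at position 209 from the lowest fold change among the 13727 genes tested. It was the only member that passed the threshold in all 6 fits without a library, with edgeR adjusted p-values up to 0.0365 and log2 fold changes from -0.92 to -0.80. Annotated exons of FEN1 share 49 bases with FADS2 on the same strand, a gene with between 550 and 770 raw counts. Exons of RFC4, RFC5, RPA1 and RPA3 overlap those of a gene on the opposite strand, and although the library kit keeps strand, the strand setting of the authors' counting is not given in the sources used here.

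**Figure D2:**
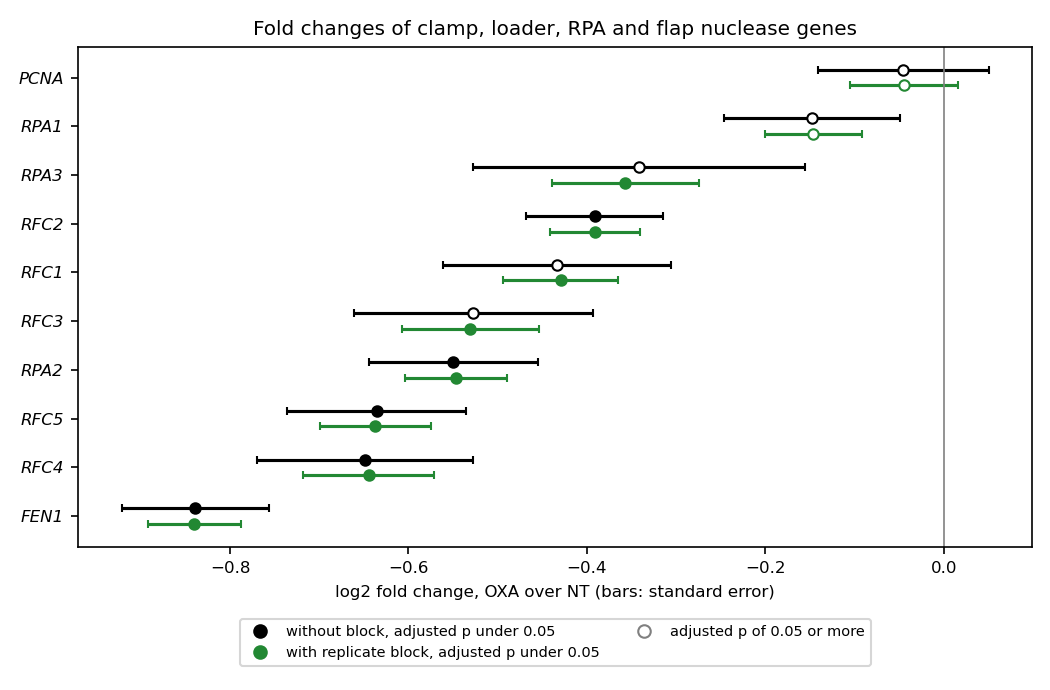
Log2 fold change of OXA over NT (x axis) with its standard error for each gene (y axis), black without the replicate block and green with it; filled points have an edgeR adjusted p under 0.05. The estimates run from -0.84 for FEN1 to -0.045 for PCNA, and 5 points are filled without the block and 8 with it.

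Levels of the genes were set side by side per transcript length, as library-scaled counts (CPM) divided by the length in kb of the MANE Select transcript. In NT, PCNA stood at 219 ± 17.7 CPM per kb (mean ± SD, n = 3) and FEN1 at 115 ± 2.28, each apart from its neighbours in the order. RPA2 (73.5 ± 6.75), RFC5 (70.3 ± 4.92), RPA1 (66.1 ± 5.66), RFC4 (55.8 ± 7.09) and RFC2 (55.0 ± 1.58) followed, and each overlapped the next in this order. Below them RFC1 (37.4 ± 5.29), RFC3 (26.7 ± 2.86) and RPA3 (19.2 ± 2.72) were separate from each other in all libraries.

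After oxaliplatin PCNA was still first, at 213 ± 13.7 CPM per kb, and FEN1 second, at 64.0 ± 3.78, where its libraries overlapped those of RPA1 (59.7 ± 4.05). In every OXA library RPA1 was above all OXA libraries of RPA2 (50.2 ± 2.04) and RFC5 (45.2 ± 4.03), whereas in NT its mean was below theirs with overlap. RPA3 remained last at 15.2 ± 3.70 CPM per kb. With the union of all annotated exons as the length, PCNA and FEN1 kept the first places and RFC3 and RPA3 the last in both groups, whereas RFC4 was in place 8 in NT in place of 6. By that length RPA1 was already above RFC5 in NT (58.3 against 45.5 CPM per kb) and close to RPA2 (58.8), so the order of RPA1 and RFC5 did not turn.

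**Figure D3:**
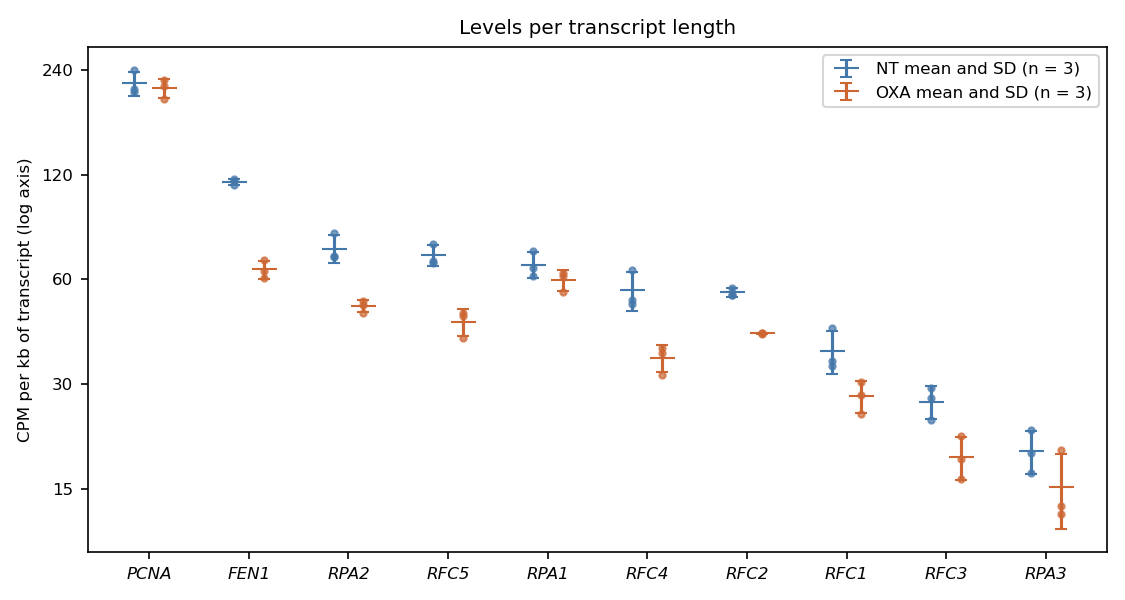
Level of each gene per transcript length (y axis, CPM per kb, log axis) in NT and OXA libraries, ordered by the NT mean (x axis); dots are libraries, bars mean and SD of 3. PCNA is the highest in both groups, at 219 and 213, and FEN1 moves from 115 to 64.0.

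The balance between transcripts was compared within each library, where differences in library scaling cancel. The ratios restate counts of single genes given in this report and are no separate results. The log2 ratio of PCNA to the geometric mean of RFC2 to RFC5, in raw counts, was 1.65, 1.66 and 1.63 in NT and 2.14, 2.17 and 2.14 in OXA. Libraries of a group were nearly equal, and the groups were 0.51 log2 units apart, a 1.42-fold higher ratio of PCNA to small subunit transcripts. PCNA itself did not rise (log2 fold change -0.045), whereas the estimates of RFC2 to RFC5 were -0.39, -0.53, -0.65 and -0.64. By the exact permutation test over 6 libraries (two-sided), p was 0.1, the smallest value that 20 splits allow, and 0.133 after Benjamini-Hochberg adjustment over 4 ratios. With 3 libraries against 3, no ratio can pass a threshold of 0.05 by this test.

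RPA1 relative to RPA2 and RPA3 was also apart, with log2 ratios of 2.32, 2.29 and 2.16 in NT and 2.66, 2.59 and 2.43 in OXA (difference 0.31, exact permutation p = 0.1, adjusted 0.133). The ratio of RFC1 to the small subunits overlapped between the groups, at 1.12, 1.01 and 0.92 in NT and 1.25, 1.10 and 1.07 in OXA (difference 0.12, exact permutation p = 0.3). Per transcript length, there were 0.311 ± 0.0734 CDKN1A transcripts for each PCNA transcript in NT and 2.43 ± 0.324 in OXA (SD, n = 3). The libraries ranged from 0.232 to 0.377 in NT and from 2.10 to 2.74 in OXA. These numbers depend on the length taken, here that of the MANE Select transcript. With the union of exons, CDKN1A stood at 47.7 and PCNA at 200 CPM per kb in NT, and at 363 and 193 in OXA. The log2 ratio in raw counts differed by 2.98 (exact permutation p = 0.1, adjusted 0.133). CDKN1A itself rose (below) and PCNA was not called. The rise of CDKN1A in these data was known before this ratio was chosen, so the direction of the ratio is no separate result.

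**Figure D4:**
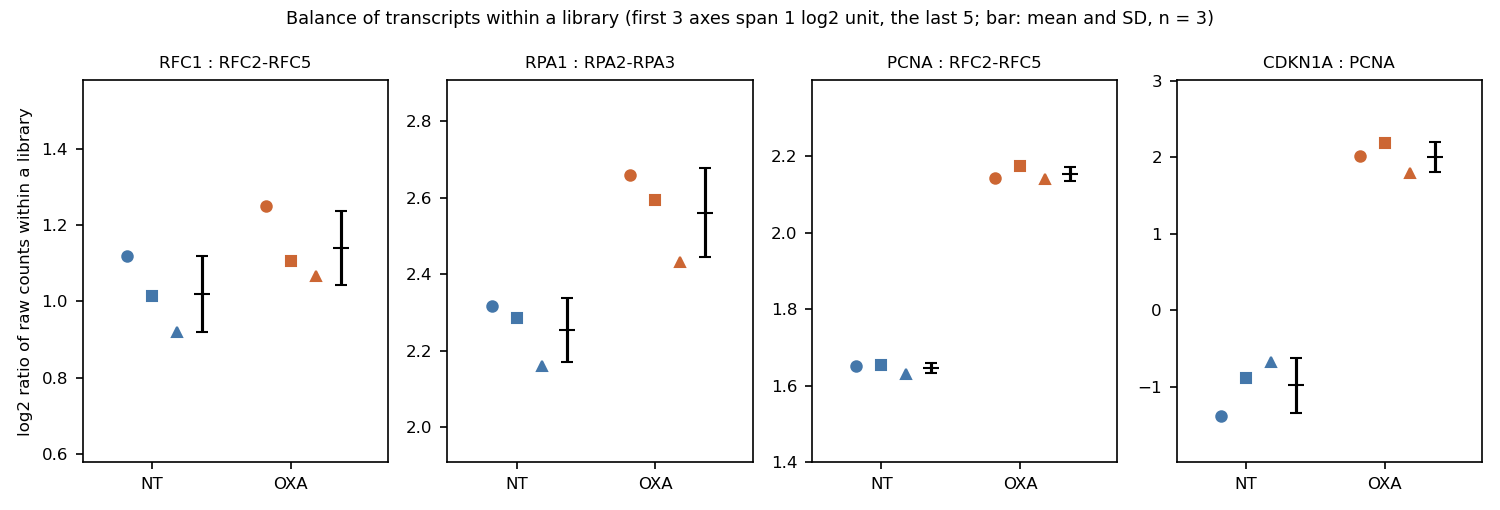
Log2 ratios of raw counts within a library (y axis) in the 3 NT and 3 OXA libraries (x axis), with the mean and SD of 3; the geometric mean stands for groups of subunits. PCNA relative to RFC2 to RFC5 is at 1.63 to 1.66 in NT and at 2.14 to 2.17 in OXA, whereas RFC1 relative to them overlaps.

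Other genes around the clamp and RPA were taken from 5 lists with 60 genes, of which 59 passed the filter on low counts. Of these, 11 fell and 2 rose, and 46 did not pass the test, where 2.29% of all genes tested were lower and 2.78% higher. The median log2 fold change was -0.25. The block gave 25 lower and 4 higher and DESeq2 19 lower. Of all genes, the block called 10.9% lower and 12.1% higher. DESeq2 called 4.81% lower of the genes to which it gave an adjusted p-value. Without single libraries, between 0 (without OXA library 1) and 17 (without NT library 1) were lower, with 7 without NT library 2, 6 without NT library 3, 1 without OXA library 2 and 2 without OXA library 3. Over all genes these fits called 19 lower (0.136%) without OXA library 1 and 571 (4.11%) without NT library 1. The shares were 1.05% and 0.498% without NT libraries 2 and 3, and 0.231% and 0.483% without OXA libraries 2 and 3.

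Of the 10 genes for alternative clamps and loaders, 2 fell. ATAD5, whose product joins RFC2 to RFC5 to take PCNA off DNA, had 809, 662 and 722 normalized counts in NT and 465, 361 and 486 in OXA (log2 change -0.74 ± 0.15 SE, adjusted p = 0.0370 by edgeR). DSCC1, a subunit gene of the CTF18 loader, had a log2 change of -0.67 (± 0.14 SE, adjusted p = 0.0361 by edgeR). Neither was called in 5 of the 6 fits without a library, the exception being the fit without NT library 1, and ATAD5 was not called with the authors' factors as offsets (adjusted p = 0.0569 by edgeR). RAD17, whose product takes the place of RFC1 in loading the checkpoint clamp, had 1732, 1450 and 1506 normalized counts in NT and 1667, 1405 and 1511 in OXA, with overlap (log2 change -0.032 ± 0.11 SE, adjusted p = 0.903 by edgeR, 95% interval from -0.29 to 0.23). Its estimate was positive without NT library 1 or OXA library 2.

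Of the 16 genes of proteins that bind PCNA, 6 fell, 2 rose and 8 did not pass. DTL, the substrate receptor of a ubiquitin ligase that works on PCNA-bound proteins, fell from 4088 ± 635 to 2093 ± 238 normalized counts (log2 change -0.97 ± 0.14 SE, adjusted p = 0.0112 by edgeR). UNG, a uracil glycosylase, fell by 0.84 on the log2 scale (adjusted p = 0.00802 by edgeR), the mismatch recognition gene MSH6 by 0.83 (adjusted p = 0.0127 by edgeR) and CHAF1A, a histone chaperone gene, by 0.78 (adjusted p = 0.0142 by edgeR). DTL, MSH6 and CHAF1A lost their calls without any 1 of the OXA libraries (edgeR adjusted p-values from 0.0517 to 0.0919), CHAF1A also without NT library 3, and UNG without OXA library 1. The genes that rose were CDKN1A, from 5143 ± 907 to 39110 ± 2895 (log2 fold change 2.93, adjusted p = 0.000445 by edgeR), and POLH, which encodes a translesion polymerase recruited by ubiquitinated PCNA. POLH had 1107, 979 and 919 normalized counts in NT and 2324, 2035 and 1958 in OXA, more than any NT library by a wide margin (log2 change 1.07 ± 0.12 SE, adjusted p = 0.00451 by edgeR). CDKN1A and POLH rose in all 6 fits without a library. PCLAF, the PCNA-associated factor gene, had a log2 fold change of -0.64 without a call (adjusted p = 0.0957 by edgeR) and was called with the block (adjusted p = 0.00421 by edgeR). DESeq2 also called PCLAF (adjusted p = 0.0142).

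Of the 11 genes of the PCNA ubiquitin cycle, edgeR called 0. At an unadjusted p-value under 0.05, 3 were lower and 1 higher, beside the 11.1% lower and 10.7% higher of all genes. DESeq2 and upper-quartile factors each gave 3 lower, and the block 3 lower and 1 higher. No filter, the stricter filter and leaving out NT library 1 each gave 2 lower. Of all genes, DESeq2 called 4.81% lower, the block 10.9% lower and 12.1% higher, and the fit without NT library 1 4.11% lower. Upper-quartile factors called 493 of 13727 genes lower, no filter 347 of 19353 and the stricter filter 365 of 12063. RAD18, the ligase that attaches ubiquitin to PCNA, had 2114, 1677 and 1769 normalized counts in NT and 1368, 1199 and 1363 in OXA, without overlap (log2 change -0.50 ± 0.12 SE, adjusted p = 0.0571 by edgeR, with the block 0.00919). DESeq2 also called RAD18 (adjusted p = 0.0103). So did upper-quartile factors, no filter, the stricter filter and the fit without NT library 1 (edgeR adjusted p from 0.0402 to 0.0484). With the authors' factors as offsets, RAD18 was not called (adjusted p = 0.165 by edgeR). Among 14 tested genes of RPA partners, 2 fell, the helicase gene BLM (log2 change -0.82 ± 0.13 SE, adjusted p = 0.0153 by edgeR) and RFWD3, whose product ubiquitinates RPA (log2 change -0.45 ± 0.10 SE, adjusted p = 0.0483 by edgeR). RFWD3 lost its call with DESeq2 size factors, the authors' factors or limma-voom, with adjusted p-values up to 0.0692, and in the 5 fits that lacked a library other than NT library 1. Among 8 genes for flap and RNA primer processing, 1 fell, EXO1, a nuclease gene of the same family as FEN1 (log2 change -0.83 ± 0.14 SE, adjusted p = 0.0210 by edgeR). BLM and EXO1 each lost their call without any 1 of the OXA libraries.

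**Figure D5:**
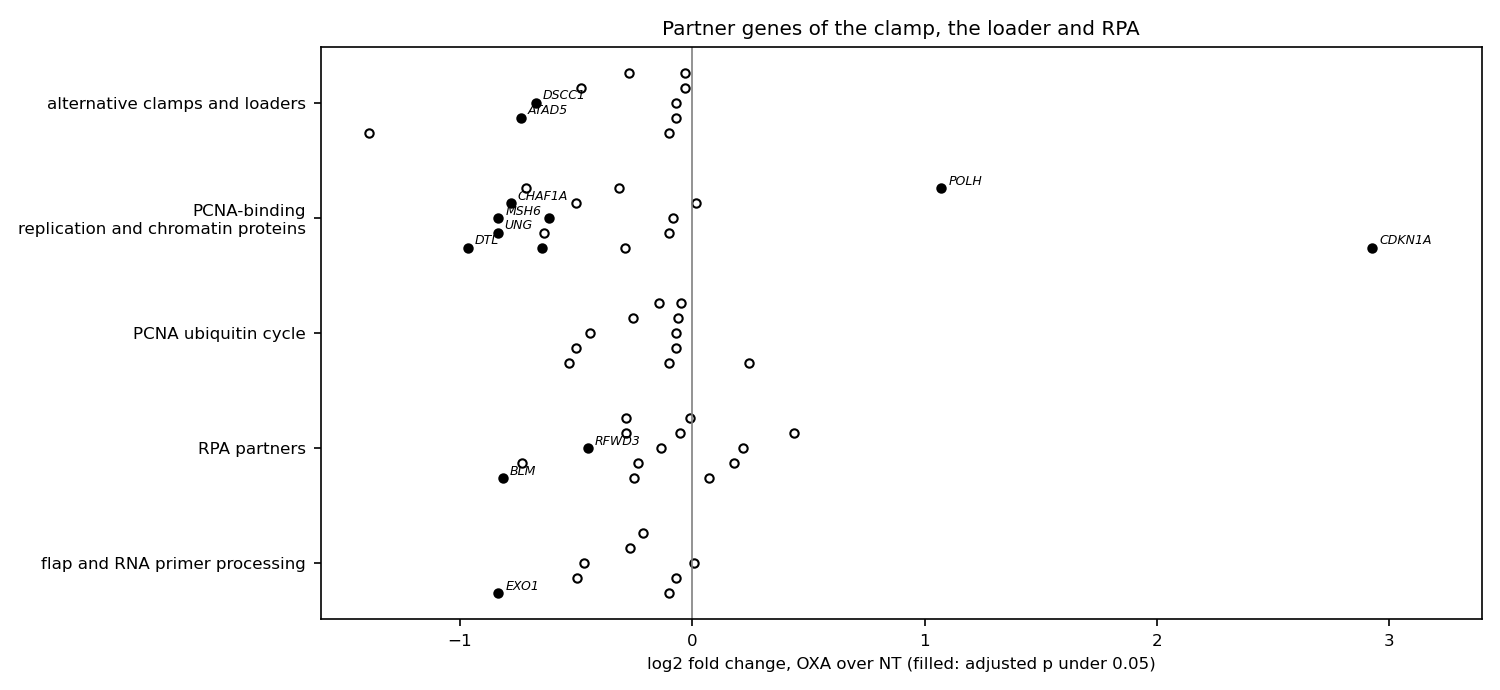
Log2 fold change of OXA over NT (x axis) for 59 partner genes by list (y axis, spread for visibility); filled points have an edgeR adjusted p under 0.05, and the called genes named in the text carry their symbol. CDKN1A at 2.93 and POLH at 1.07 are the filled points above 0, and the ubiquitin cycle has no filled point.

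The profile of the 10 genes over the 6 libraries was also compared with that of 11998 other genes of at least 50 normalized counts. Likeness was the root mean square difference in log2 units between a gene, relative to its NT mean, and the mean of the 10. The most alike were ERI1 (0.0116), SLBP (0.0163), REV1 (0.0241), ZDHHC6 (0.0246) and RACGAP1 (0.0260), where the median of all genes compared was 0.399. These genes were picked for the smallest differences, so they lie below that median by selection. REV1 was not called lower (adjusted p = 0.0648 by edgeR), and the others were, with edgeR adjusted p-values from 0.0421 to 0.0461. Among the members, RPA2 was nearest to their mean (0.0813) and PCNA farthest (0.293), followed by FEN1 (0.281). These are values over 6 libraries that share the same scaling.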

How the data were processed

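Reads of polyadenylated RNA were mapped to GRCh38 with STAR by the authors, and the submitters' processing notes name Trimmomatic 0.32, STAR 2.7.5b and RSEM 1.3.3 without their roles. The authors deposited raw counts per gene, whole numbers that may be rounded estimates, and a normalized signal, the raw count times a factor that differs between genes and libraries. The count annotation is not given in the sources used here. Library totals ranged from 32979521 to 40967880, and PCR duplicates cannot be told apart.

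Counts of all 6 libraries were filtered with filterByExpr (minimum count 10, minimum total 15) and scaled by TMM factors. The contrast of OXA to NT was tested with the quasi-likelihood method of edgeR 4.0.16 under R 4.3.3, adjusting by Benjamini-Hochberg over 13727 genes. Alternatives used DESeq2 1.42.0 and limma 3.58.1. The study used DESeq2, which is an alternative here. A call is an adjusted p-value under 0.05. Normalized counts are scaled to the mean effective library size, and a standard error is the estimate over the square root of F. Gene positions and lengths came from GENCODE 44.

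Same-numbered libraries deviated together from their group means (correlations over genes 0.71, 0.71 and 0.41, above the limit of 0.1 that was set). Other pairs lay between -0.60 and 0.15, and NT library 3 with OXA library 2 (0.15) also passed the limit. The number was thus taken to pair libraries from the same counts to which the block was then fitted. It comes from the labels, which do not say what it stands for. Alternatives were other scaling factors, filters and tests, the block and each library left out. Named are all members, CDKN1A, PCLAF, ATAD5, RAD17, RAD18 and, per list and direction, all called partners up to 5, otherwise the 4 with the largest change. Where exceptions or lost calls are named, they were chosen after their values were seen. Members and lists were chosen with earlier results of these data known. Sequences of 300 bases came from RefSeq.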

Additional observations from a re-analysis of the deposited data

How the results depend on the processing

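For the members, 138 of 140 alternative log2 fold changes were negative. The exceptions were PCNA without NT library 1 (0.023) and without OXA library 2 (0.0056), and in the partner genes RAD17 was positive without the same libraries (0.048 and 0.025). Without single libraries PCNA ranged from -0.12 to 0.023 and RAD17 from -0.12 to 0.048. The count of members called lower went from 5 to 8 with the replicate block and to 3 with a fold change over 1.5, and lay between 1 and 5 without single libraries. Partner genes called lower went from 11 to 25 and those called higher from 2 to 4 with the replicate block, DESeq2 gave 19 lower, and without single libraries between 0 and 17 were lower. The cause was not tested. All 28 alternative values of the 4 ratios kept their direction, with PCNA to RFC2-RFC5 between 0.50 and 0.51. Under upper-quartile factors 58.6% of all calls were lower, in place of 45.3% (493 lower and 348 higher, against 315 and 381). Over all genes the block called 1493 lower and 1664 higher, DESeq2 635 and 633, and the authors' factors 200 and 241. With 3 libraries a group, small changes such as that of PCNA could not be told from 0. A block changed no call other than those given beside a gene or within a count. All 20 levels per length moved by more than 1 SD with the union of exons, as the lengths differ.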

Other observations

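The authors' factor per gene, divided by its median in the library, stayed between 0.9999 and 1.004 for PCNA and between 0.995 and 1.008 for FEN1. For RPA3 it ranged from 0.871 in OXA library 2 to 1.04 in OXA library 3, and for RPA1 from 0.950 in NT library 1 to 1.09 in OXA library 3. In the fit with these factors the log2 fold changes of the 10 genes lay between -0.85 and -0.067.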
